A study of Mus musculus with 178 samples.

Results

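Basophils and eosinophils are the rarest granulocytes of the blood, and their RNA was followed here through 10 genes in whole blood of mice treated with an antibody against PD-1. The genes were the protease genes Mcpt8, Prss34 and Cpa3, the receptor chain genes Fcer1a and Ms4a2, the transcription factor gene Gata2, the surface receptor genes Ccr3 and Siglecf and the granule protein genes Epx and Prg2. They were chosen by symbol, and each symbol matched 1 of the 55450 rows of the count table. The 178 bulk RNA-seq libraries came from 45 C57BL/6J mice, 6 to 8 weeks old, that carried orthotopic tumors of 4MOSC1 cells, a carcinogen-induced oral squamous carcinoma line, in the tongue or buccal mucosa. All mice received anti-PD-1 (clone RMP1-14) by injection into the peritoneum, so that no untreated or tumor-free group was available and treatment, tumor growth, age and repeated bleeding cannot be told apart over time. Response was assessed by RECIST criteria. From responders there were 15 libraries on Days 4, 9 and 24 and 14 on Day 17. From non-responders there were 29 on Day 4 and 30 on Days 9, 17 and 24. Day 4 was before treatment and the other days were on treatment. Mice carry a number within their group that follows the ear tag. Tags have 4 digits in 11 responders and 7 non-responders and 3 digits in 4 responders and 23 non-responders, so that results are also given within each tag series. The Day 17 library of non-responder 24 carries the label of a responder and was counted with its mouse.

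Libraries held 26058965 to 82208666 counts, of which 68.7% to 88.0% fell on haemoglobin genes, leaving 4536700 to 22177361 counts for all other genes. The Day 24 library of non-responder 29 stood apart. Its TMM factor, which rescales library size, was 0.0848 against 0.265 to 2.46 in the other libraries, and it held 0 counts of Mcpt8, Prss34, Cpa3, Ms4a2, Epx and Prg2. No count of these genes called on Day 24 changed when it was left out.

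Basophils arise in the bone marrow, circulate in small numbers and carry the high-affinity receptor for IgE, whose alpha chain is encoded by Fcer1a and whose signal-amplifying beta chain is encoded by Ms4a2. When IgE or cytokines engage them, they release histamine, interleukin-4 and granule proteases. In mice, Mcpt8 and Prss34 encode basophil granule proteases, and Cpa3 encodes a carboxypeptidase that basophils share with mast cells. Eosinophils mature under interleukin-5, follow eotaxins through the receptor CCR3 and in mice carry Siglec-F, an inhibitory sialic acid receptor. Their granules hold the major basic protein (Prg2) and the eosinophil peroxidase (Epx), whose RNA is made mainly by maturing cells in the marrow. Gata2 is needed in blood progenitors, mast cells, basophils and megakaryocytes. In bulk blood, fewer cells of a type and less RNA per cell cannot be told apart.

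Abundance differed widely among the 10 genes, and only 4 of them had a median count of at least 10 in all 8 groups of day and response. A gene was taken as too low to measure in a group where its median count was under 10. Ccr3, Gata2, Siglecf and Ms4a2 were measurable in every group, with group medians of 76 to 383, 85.5 to 192, 43 to 124 and 21 to 67.5 counts. Cpa3 was measurable in 4 groups, those of Days 4 and 9, with group medians of 5.5 to 22.5. Fcer1a was measurable in 3 groups, both groups of Day 9 and the non-responders of Day 4, with medians of 5 to 17.5. Mcpt8 reached a median of 10 on Day 9 alone, at 18 counts in responders and 27 in non-responders, against 5.5 to 8 in the other 6 groups. Prss34 reached 10 in the non-responders of Day 9 alone and had medians of 2 to 9 elsewhere. Prg2 and Epx were too low in all 8 groups. Prg2 had group medians of 3 to 8 counts and a highest count of 73. Epx had 0 counts in 154 of 178 libraries, a highest count of 4 and 37 counts in all. A library with 0 counts allows up to 3 counts, or 0.0183 to 0.201 CPM (counts scaled to a library of fixed size, corrected by TMM) outside the library that stood apart, and this limit covers counting error only.

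Per length, as the authors' TPM values, which divide counts by gene length and scale them to a fixed sum, the order of the median levels over 178 libraries was Gata2 (0.47), Ccr3 (0.455), Siglecf (0.25), Ms4a2 (0.185), Mcpt8 (0.115), Fcer1a (0.1), Cpa3 and Prg2 (both 0.07), Prss34 (0.04) and Epx (0). Neighbours in this order did not differ beyond their spread, taken as overlap of their quartiles, except Prss34 and Epx, which had both quartiles at 0. Gata2 was above Ccr3 in 86 of 178 libraries and Mcpt8 above Fcer1a in 108. Ccr3 was above Siglecf in 159 of 178 libraries. The order pools the 8 groups of day and response, whose levels differ by gene, so that it depends on their mix. The TPM values include haemoglobin in their sum and were deposited to 2 decimals, so that the lowest genes rest on few steps.

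**Figure D1:**
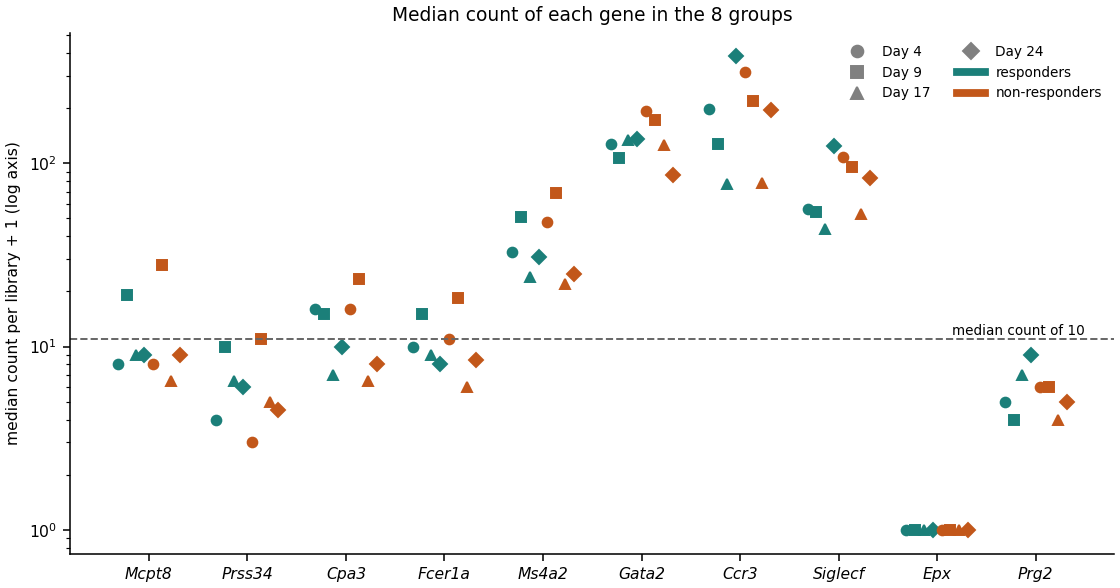
Median count per library plus 1 (log axis) of each of the 10 genes in the 8 groups, with the shape giving the day and the color the response group, and the dashed line at a median count of 10. Ccr3, Gata2, Siglecf and Ms4a2 lie above the line in every group, Mcpt8 on Day 9 alone, and Prg2 and Epx in none.

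All 10 are protein-coding genes, spread over 10 chromosomes of the mm10 build (GRCm38, GENCODE M21): Mcpt8 at chr14:56082166-56085273, Prss34 at chr17:25298394-25300165, Cpa3 at chr3:20215620-20242181, Fcer1a at chr1:173221284-173227214, Ms4a2 at chr19:11615523-11623719, Gata2 at chr6:88193891-88207032, Ccr3 at chr9:124021972-124031689, Siglecf at chr7:43351341-43359531, Epx at chr11:87864000-87875536 and Prg2 at chr2:84980461-84983632. The other annotated genes inside them were the microRNA genes Mir6949 within Mcpt8 and Mir7007 within Cpa3, both on the same strand and with 0 counts in every library, so that no overlapping gene shared counts with a member. Promoter windows from RefSeq (GRCm38.p6, 250 bases before to 50 after the start) were available for 9 of the 10 genes, with 2 windows for Gata2. They were searched on both strands for AGATAA and TGATAA, which share the core letters of GATA factor sites, and for TGTGGT, a core of RUNX sites. A match is a description of letters. GATA letters were present in the windows of 6 of the 9 genes (Prss34, Cpa3, Fcer1a, Ms4a2, Ccr3 and Siglecf) and in 18.6% of all 32817 windows, and RUNX letters in those of 4 genes (Mcpt8, Cpa3, Fcer1a and Siglecf) and in 16.8% of all windows. Ms4a2 held 3 GATA matches, starting 224, 37 and 11 bases before the start. The matches of Cpa3, Prss34 and Ccr3 started 46, 31 and 30 bases before it, that of Fcer1a 92 bases before it and that of Siglecf 11 bases after it. The 250 bases before the start are shown for the basophil genes that hold GATA letters, which varied together across libraries, and for Ccr3 as the eosinophil gene with the highest counts, with the GATA matches in capitals, the RUNX matches unmarked and each read 5′ to 3′ toward the start. They lie at chr19:11623720-11623969 (minus strand), chr1:173227230-173227479 (minus strand), chr3:20242182-20242431 (minus strand), chr17:25298144-25298393 (plus strand) and chr9:124021721-124021970 (plus strand).
Ms4a2: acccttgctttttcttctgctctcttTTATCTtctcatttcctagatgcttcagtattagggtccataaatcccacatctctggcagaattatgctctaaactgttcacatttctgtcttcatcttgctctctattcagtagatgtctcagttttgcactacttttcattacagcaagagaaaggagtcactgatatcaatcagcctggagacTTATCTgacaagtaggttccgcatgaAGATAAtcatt
Fcer1a: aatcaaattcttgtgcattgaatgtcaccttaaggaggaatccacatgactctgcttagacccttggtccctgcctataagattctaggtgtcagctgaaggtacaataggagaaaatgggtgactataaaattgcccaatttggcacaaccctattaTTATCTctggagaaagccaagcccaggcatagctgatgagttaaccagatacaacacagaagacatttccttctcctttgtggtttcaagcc
Cpa3: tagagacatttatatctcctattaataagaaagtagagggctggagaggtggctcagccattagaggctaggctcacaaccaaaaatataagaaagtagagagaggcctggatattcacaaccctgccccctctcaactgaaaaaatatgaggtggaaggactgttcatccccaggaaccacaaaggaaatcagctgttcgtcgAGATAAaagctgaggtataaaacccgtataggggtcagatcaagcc
Prss34: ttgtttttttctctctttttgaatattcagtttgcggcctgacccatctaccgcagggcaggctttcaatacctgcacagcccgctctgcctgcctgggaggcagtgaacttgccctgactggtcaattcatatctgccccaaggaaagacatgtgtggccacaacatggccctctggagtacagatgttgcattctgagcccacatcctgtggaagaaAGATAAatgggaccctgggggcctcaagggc
Ccr3: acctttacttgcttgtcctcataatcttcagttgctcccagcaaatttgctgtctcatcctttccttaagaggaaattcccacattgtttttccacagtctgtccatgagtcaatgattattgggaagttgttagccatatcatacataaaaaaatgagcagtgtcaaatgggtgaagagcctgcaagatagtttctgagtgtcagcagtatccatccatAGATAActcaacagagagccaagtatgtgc

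The 5 genes termed basophil genes here, Mcpt8, Prss34, Cpa3, Fcer1a and Ms4a2, rose between Day 4 and Day 9, not all of them in both response groups. Gata2, which was also listed for basophils, is not among these 5 and is described separately. Its log2 fold changes on these days were 0.11 in non-responders and 0.16 in responders, neither called. Mcpt8 and Ms4a2 were called in both response groups, Fcer1a and Cpa3 in non-responders and Prss34 in responders. By the limit above, Mcpt8 was too low to measure on every day but Day 9. The size of its changes between days is given with that limit. Levels are given as TMM-scaled log2 CPM, and a change was called at an adjusted p of at most 0.05 in edgeR's quasi-likelihood test over all genes. In non-responders, the lowest, median and highest levels of Mcpt8 were -3.98, -3.06 and -1.44 on Day 4 and -2.66, -1.08 and 1.33 on Day 9. In responders they were -3.85, -2.46 and -0.82 on Day 4 and -2.73, -0.58 and 0.54 on Day 9. The medians of both groups on Day 9 lay above the highest Day 4 library of their group, although the ranges overlapped. The log2 fold change of Mcpt8 was 2.29 (SE 0.28, adjusted p = 4.93e-12) in non-responders, with a higher level in 27 of 29 mice, and 1.89 (SE 0.36, adjusted p = 5.98e-05) in responders, with a higher level in 12 of 15. Prss34, the other basophil protease gene, had lowest, median and highest levels of -4.81, -3.47 and -1.24 on Day 4 and -4.81, -1.43 and -0.43 on Day 9 in responders, where it rose by 1.74 (SE 0.43, adjusted p = 0.00135), at median counts of 3 and 9 that are too low to measure by the limit above. In non-responders its levels were -4.81, -3.98 and -1.99 on Day 4 and -3.92, -2.13 and -0.21 on Day 9, higher in 26 of 29 mice. The filter on low counts left it untested there, and with every gene of at least 1 count kept its log2 fold change was 2.22 (adjusted p = 6.76e-10).

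Both IgE receptor chain genes rose in non-responders. In non-responders Ms4a2 had lowest, median and highest levels of -2.42, -0.72 and -0.04 on Day 4 and -1.63, 0.18 and 1.56 on Day 9, a rise of 1.04 (SE 0.20, adjusted p = 2.95e-06) that 27 of 29 mice shared. In responders the levels were -2.08, -0.52 and 0.21 and -1.54, 0.58 and 1.77, a rise of 0.96 (SE 0.30, adjusted p = 0.0118) seen in 12 of 15 mice. The day ranges of Ms4a2 overlapped in both groups. Fcer1a rose in non-responders, from levels of -4.16, -2.55 and -1.60 to -3.36, -1.80 and -0.16, by 1.16 (SE 0.24, adjusted p = 2.76e-05). In responders its levels were -3.67, -2.11 and -0.66 on Day 4 and -3.15, -1.20 and -0.06 on Day 9, and its log2 fold change was 0.79 (SE 0.34, adjusted p = 0.0762), which did not pass the threshold. By the limit above, Fcer1a was too low to measure in responders on Day 4. Cpa3 rose in non-responders by 0.85 (SE 0.20, adjusted p = 0.000254), from levels of -3.08, -2.01 and -1.05 to -2.85, -1.25 and 0.04. In responders the log2 fold change of Cpa3 was 0.26 (SE 0.24, adjusted p = 0.458). Over the 10 genes, 4 of the 7 tested rose from Day 4 to Day 9 in non-responders, where 23.3% of all tested genes rose. In responders 3 of 9 tested rose, against 13.5% of all genes. Mcpt8 and, in responders, Prss34 may have passed the filter on low counts through their Day 9 libraries, where they were highest. These shares are therefore a description and no test of a rise. None of these Day 9 changes differed between the response groups past the threshold in the interaction test described further down.

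Within the tag series, the Day 9 rise of Mcpt8 in non-responders was 2.75 in the mice of 4-digit tags and 2.04 in those of 3-digit tags, and that of Ms4a2 was 1.32 in the mice of 4-digit tags and 0.91 in those of 3-digit tags, all called. In responders the rise of Mcpt8 was 2.32 (adjusted p = 3.64e-06) in the 11 mice of 4-digit tags and 0.21 (adjusted p = 0.892) in the 4 mice of 3-digit tags, and that of Ms4a2 was 1.14 (adjusted p = 0.0114) and 0.26 (adjusted p = 0.768). Prss34, called in responders as a whole, rose by 2.15 (adjusted p = 0.00123) in the 4-digit series, and Fcer1a, not called over all responders, by 1.05 (adjusted p = 0.0235). The 3-digit fit left Prss34 untested, at -2.62 ± 1.11 (SD, n = 4) before treatment against -2.66 ± 1.62 (SD, n = 4) on Day 9, with a higher level in 2 of 4 mice. Fcer1a, also untested there, had means of -1.94 ± 0.97 (SD, n = 4) and -2.37 ± 0.64 (SD, n = 4). In responders the rise of Mcpt8, Ms4a2, Prss34 and Fcer1a was called in the 4-digit series, and in the 4 mice of the other series none of them was called. The difference between the series was not tested.

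**Figure D2:**
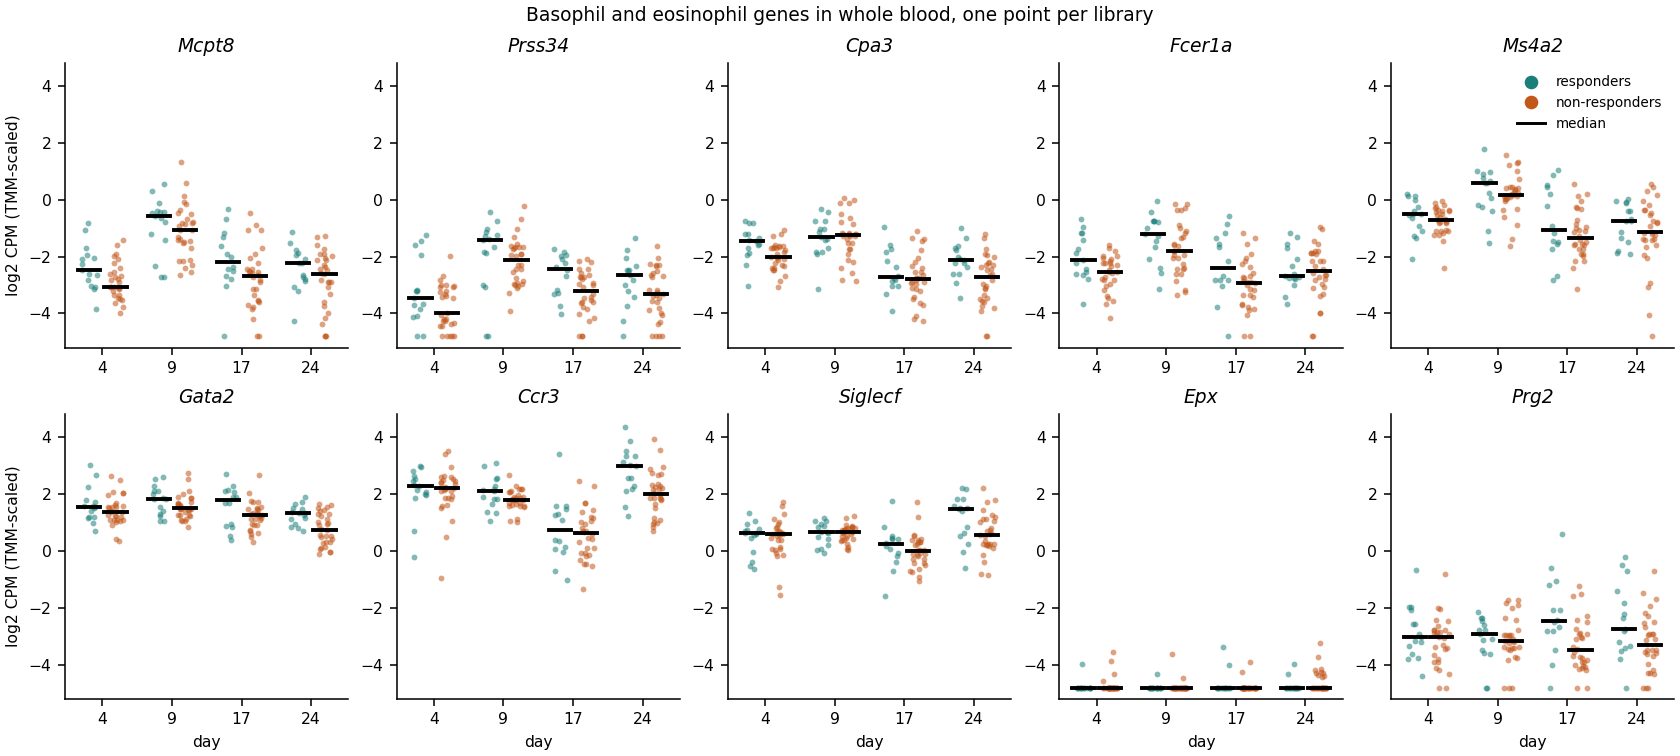
TMM-scaled log2 CPM (y) of the 10 genes by day (x), 1 point per library, responders in green and non-responders in orange, with black lines at the group medians. The points at about -4.81 are libraries with 0 counts. Mcpt8, Prss34, Fcer1a and Ms4a2 have their highest medians on Day 9, and Ccr3 has its lowest medians on Day 17 and its highest responder median on Day 24.

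From Day 9 to Day 17 the basophil genes tested fell in non-responders, and in responders Mcpt8 and Cpa3 fell. By the limit above, Mcpt8, Cpa3, Fcer1a and Prss34 were too low to measure on Day 17 in both groups. Of the basophil genes only Ms4a2 was measurable on both days, and the sizes of the other falls are given with that limit. Cpa3 had not been called in responders from Day 4 to Day 9, at 0.26 (SE 0.24, adjusted p = 0.458). Mcpt8 and, in responders, Prss34 may have passed the filter on low counts through their Day 9 libraries, so that the shares below are a description. In non-responders all 7 genes tested fell, against 16.2% of all tested genes. Levels of Mcpt8 on Day 17 were -4.81, -2.68 and -0.46 (lowest, median and highest), and Mcpt8 fell by 1.72 (SE 0.27, adjusted p = 1.04e-07) on the log2 scale, with a lower level in 27 of 30 mice. Cpa3 fell by 1.59 (SE 0.22, adjusted p = 4.12e-09), Fcer1a by 1.42 (SE 0.25, adjusted p = 3.81e-06) and Ms4a2 by 1.36 (SE 0.20, adjusted p = 2.61e-08). The Day 17 levels of Ms4a2 were -3.15, -1.35 and 0.57, with the Day 17 and Day 9 ranges still overlapping. Prss34, untested there, fell by 1.36 (adjusted p = 0.000131) with every gene of at least 1 count kept. In responders 2 of 9 genes tested fell, against 3.68% of all genes. Mcpt8, with Day 17 levels of -4.81, -2.19 and -0.33, fell by 1.28 (SE 0.35, adjusted p = 0.018) and was lower in 13 of 14 mice. Cpa3, with Day 17 levels of -3.93, -2.72 and -0.95, fell by 1.28 (SE 0.27, adjusted p = 0.00157). Ms4a2 had a log2 fold change of -0.81 (SE 0.30, adjusted p = 0.105) and Fcer1a of -0.82 (SE 0.35, adjusted p = 0.155), neither past the threshold. With the mouse as a block, which pairs the days within each animal, 5 genes were called in responders, of which 4 fell, namely Mcpt8, Cpa3, Ms4a2 at -0.94 (adjusted p = 0.0496) and Ccr3 at -1.17 (adjusted p = 0.0188), and Prg2 rose, at 1.49 (adjusted p = 0.0497), in a fit that called 278 higher and 515 lower of 12561 genes in all. Within the tag series, the log2 fold change of Mcpt8 in non-responders was -3.45 in the mice of 4-digit tags and -1.11 in those of 3-digit tags and that of Cpa3 was -2.96 in the mice of 4-digit tags and -1.16 in those of 3-digit tags, all called. In responders Cpa3 was called in both series, at -1.13 in the mice of 4-digit tags and -1.80 in those of 3-digit tags, and Mcpt8 in the 4-digit series alone, at -1.22 (adjusted p = 0.01) against -1.54 (adjusted p = 0.466) in the 4 mice of 3-digit tags. Monocyte markers fell over the same days, 5 of 5 in non-responders and 4 of 5 in responders, and 2 of 7 neutrophil markers fell in non-responders. The summed monocyte markers had medians of 176 CPM on Day 9 and 116 CPM on Day 17 in non-responders and 167 and 120 CPM in responders. Their part in the fall of the basophil genes was not tested.

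On Day 24 Cpa3 was called below its Day 4 level in non-responders. Prss34 was called above its Day 4 level there in the refits over all mice whose filter kept it. By the limit above, both genes were too low to measure on Days 17 and 24, and Prss34 on Day 4 as well. In non-responders Cpa3 had lowest, median and highest levels of -4.81, -2.73 and -1.20 on Day 24 and fell by 0.80 (SE 0.23, adjusted p = 0.00243), lower in 23 of 29 mice, with -1.19 (adjusted p = 0.0855) in the 4-digit series, not called, and -0.69 (adjusted p = 0.0162) in the 3-digit series. Prss34 had levels of -4.81, -3.34 and -1.64 on Day 24, after -4.81, -3.98 and -1.99 on Day 4, at median counts of 3.5 and 2. The filter left it untested, and with every gene of at least 1 count kept its log2 fold change was 0.93 (adjusted p = 0.0265), with a higher level in 16 of 29 mice. With haemoglobin genes removed it was 0.97 (adjusted p = 0.00907). From Day 4 to Day 17 it was, with every gene of at least 1 count kept, 0.86 (adjusted p = 0.0436), higher in 21 of 29. In the 7 mice of 4-digit tags neither was called, at 0.83 (adjusted p = 0.504) to Day 24 and 0.20 (adjusted p = 0.884) to Day 17. Already from Day 4 to Day 17 Cpa3 fell by 0.74 (SE 0.23, adjusted p = 0.00482) in non-responders, with -1.54 (adjusted p = 0.015) in the 4-digit series and -0.56 (adjusted p = 0.0533), not called, in the 3-digit series. Over these days it fell by 1.02 (SE 0.27, adjusted p = 0.004) in responders, where neither tag series alone gave a call at -0.84 (adjusted p = 0.0583) with 4 digits and -1.63 (adjusted p = 0.0773) with 3 digits, in a fit that called 0 of 12675 genes. In responders the log2 fold change of Cpa3 from Day 4 to Day 24 was -0.67 (SE 0.25, adjusted p = 0.0552), called by DESeq2 at -0.67 (adjusted p = 0.0342). Mcpt8 on Day 24 had levels of -4.81, -2.60 and -1.27 in non-responders and -4.28, -2.22 and -1.15 in responders, and its log2 fold changes from Day 4 were 0.37 (SE 0.31, adjusted p = 0.333) and 0.10 (SE 0.38, adjusted p = 0.887). Ms4a2 differed from Day 4 by -0.14 (SE 0.21, adjusted p = 0.597) in non-responders and -0.24 (SE 0.31, adjusted p = 0.63) in responders. Between Day 17 and Day 24 none of the basophil genes tested was called in either group by edgeR or DESeq2, and none had an unadjusted p under 0.05 in edgeR's test. Over all genes edgeR called 1283 higher and 1473 lower of 13009 in non-responders and 1205 higher and 1169 lower of 12561 in responders. DESeq2 called 1362 higher and 1543 lower in non-responders and 1382 higher and 1262 lower in responders. An unadjusted p under 0.05 was found for 4431 of 13009 and 3989 of 12561 genes. Mcpt8 had log2 fold changes of -0.21 (SE 0.30, adjusted p = 0.661) in non-responders and -0.50 (SE 0.37, adjusted p = 0.369) in responders there. The tag series of non-responders pointed in different directions here. From Day 4 to Day 24 Mcpt8 changed by 0.77 (adjusted p = 0.0319) in the 3-digit series and by -1.37 (adjusted p = 0.235) in the 7 mice of the 4-digit series, and Ms4a2 by 0.14 (adjusted p = 0.625) and -1.38 (adjusted p = 0.0153). To Day 17 Mcpt8 changed by 0.93 (adjusted p = 0.00913) and -0.70 (adjusted p = 0.449) in the same order, and Ms4a2 by -0.07 (adjusted p = 0.824) and -1.37 (adjusted p = 0.00594). Over all non-responders the changes to Day 17 were 0.57 (SE 0.30, adjusted p = 0.112) for Mcpt8 and -0.33 (SE 0.21, adjusted p = 0.196) for Ms4a2. Whether the series differed was not tested.

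Other genes known from basophils rose on the same day. Their list was chosen with earlier results of these data known. Of 9 such genes listed, 8 were tested, and 5 of them (Hdc, Csf1, Ifitm1, Cyp11a1 and Cd200r3) rose from Day 4 to Day 9 in both response groups, against 23.3% of all genes in non-responders and 13.5% in responders. The median log2 fold change of the 8 genes was 0.99 in non-responders and 0.69 in responders, beside medians over all genes of -0.01 and 0.01. Hdc, which encodes the enzyme that makes histamine, rose by 1.22 (SE 0.13, adjusted p = 1.63e-14) in non-responders, Csf1, a growth factor gene, by 1.03 (SE 0.12, adjusted p = 2.32e-13) and Ifitm1, an interferon-induced membrane protein gene, by 1.21 (SE 0.19, adjusted p = 3.53e-08). Cd200r3, an activating receptor gene of basophils, and Cyp11a1, a steroid synthesis gene, were also the genes closest to Ms4a2 across libraries and rose by 0.95 (SE 0.20, adjusted p = 2.04e-05) and 1.25 (SE 0.22, adjusted p = 6.53e-07). Hdc and Ifitm1 are also expressed by neutrophils. Il13 had a median count of 0 and a highest count of 3. From Day 9 to Day 17 6 of 8 of these genes fell in non-responders, against 16.2% of all genes, and 1 of 8 in responders, against 3.68%. Between Day 4 and Day 17 4 of 8 such genes fell in non-responders (Il4, Il1rl1, Cyp11a1 and Ptgdr2), against 24.2% of all genes, and 2 of 8 rose (Hdc and Ifitm1), against 21.9%. In responders 0 of 8 fell by edgeR's test, against 13.4%, with Ptgdr2 at -1.02 (SE 0.40, adjusted p = 0.0513), and 2 of 8 rose (Hdc and Ifitm1), against 12.2%. The median log2 fold change of the 8 genes was -0.37 in non-responders and 0.15 in responders, and the difference between the groups was not tested for the list. Il4, the interleukin-4 gene that T cells also express, fell by 0.59 (SE 0.16, adjusted p = 0.000991) in non-responders.

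Mast cells share Cpa3, Fcer1a and Ms4a2 with basophils, and most genes of mast cells alone were at or near 0 counts. Of 8 mast cell markers, Tpsb2, Tpsab1, Mcpt4, Mcpt1 and Mrgprb2 had a median of 0 counts and highest counts of 1 to 6, and Mcpt2 had a median of 1. Kit, the stem cell factor receptor gene, with a median of 20 counts, and Cma1, a chymase gene, with a median of 30, were the only markers tested. Between Day 4 and Day 9 Kit had log2 fold changes of 0.07 (SE 0.13, adjusted p = 0.72) in non-responders and 0.37 (SE 0.21, adjusted p = 0.18) in responders, and Cma1 of -0.14 (SE 0.13, adjusted p = 0.406) and -0.28 (SE 0.18, adjusted p = 0.254). The summed level of the 8 markers ranged over 0.676 to 2.6 (median 1.18) CPM on Day 4 and 0.647 to 2.01 (median 1.07) CPM on Day 9 in non-responders. Genes of more abundant leukocytes did move on Day 9. All 5 monocyte markers and 6 of 7 neutrophil markers rose in non-responders, and 3 of 5 and 4 of 7 rose in responders, against 23.3% and 13.5% of all genes. The summed monocyte markers ranged over 64.8 to 141 (median 92.9) CPM on Day 4 and 104 to 286 (median 176) CPM on Day 9 in non-responders and over 69.3 to 180 (median 120) and 121 to 275 (median 167) CPM in responders. The summed neutrophil markers ranged over 56.7 to 202 (median 117) and 124 to 387 (median 227) CPM in non-responders. Vcan, a matrix proteoglycan gene of monocytes, rose by 2.82 (SE 0.21, adjusted p = 1.93e-22) in non-responders. Of the 4 lymphocyte markers, 3 fell in non-responders, against 27.5% of all genes, and 3 in responders, where 1782 of 12561 genes fell. Of 6 markers of megakaryocytes and their progenitors, 4 fell in non-responders, and 1 rose and 1 fell in responders. The part of these changes in the rise of the basophil genes was not tested.

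The eosinophil surface receptor genes took another course, with their lowest medians on Day 17. In non-responders Ccr3 and Siglecf both fell to Day 17, in responders Ccr3 fell from Day 4 and Siglecf was not called, and both genes rose from Day 17 to Day 24 in both groups. Ccr3, the eotaxin receptor gene, had lowest, median and highest levels of -0.95, 2.20 and 3.50 on Day 4, 1.01, 1.80 and 2.66 on Day 9, -1.32, 0.62 and 2.45 on Day 17 and 0.71, 2.00 and 3.93 on Day 24 in non-responders. In responders the levels were -0.20, 2.27 and 3.00 on Day 4, 1.05, 2.12 and 3.09 on Day 9, -1.04, 0.73 and 3.40 on Day 17 and 1.24, 2.98 and 4.34 on Day 24. The Day 17 median was the lowest in both groups, and the Day 24 median of responders was the highest of the 8 groups. Between Day 4 and Day 17 Ccr3 fell by 1.47 (SE 0.19, adjusted p = 1.35e-10) in non-responders, lower in 25 of 29 mice, and by 1.02 (SE 0.32, adjusted p = 0.0142) in responders, lower in 12 of 14 mice. In total 3 of 7 genes tested fell in this comparison in non-responders, against 24.2% of all genes, and 2 of 9 in responders, against 13.4%. Over the same days 4 of 4 lymphocyte markers fell and 5 of 7 neutrophil markers rose in non-responders, where 21.9% of all genes rose, and 3 of 4 fell and 5 of 7 rose in responders, where 12.2% did. In each group 1 of 7 neutrophil markers fell. Of 5 monocyte markers 3 rose in non-responders, and 1 rose and 1 fell in responders. The summed lymphocyte markers had medians of 248 CPM on Day 4 and 190 CPM on Day 17 in non-responders and 242 and 179 CPM in responders. The part of these markers in the fall of Ccr3 was not tested. From Day 17 to Day 24 Ccr3 rose by 1.41 (SE 0.19, adjusted p = 3.13e-08) in non-responders, higher in 26 of 30 mice, and by 1.78 (SE 0.32, adjusted p = 3.96e-05) in responders, higher in 13 of 14. From Day 4 to Day 9 Ccr3 in non-responders fell by 0.43 (SE 0.18, adjusted p = 0.0353), the 1 fall among 7 genes tested, against 27.5% of all genes, and was not called with the mouse as a block, at -0.39 (adjusted p = 0.0547).

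Over all mice of each group, Siglecf had smaller log2 fold changes than Ccr3 from Day 4 to Day 17 and from Day 17 to Day 24. Its lowest, median and highest levels in non-responders were 0.02, 0.67 and 1.22 on Day 9, -1.07, -0.02 and 1.73 on Day 17 and -0.86, 0.57 and 2.20 on Day 24, after -1.56, 0.58 and 1.72 on Day 4. It fell from Day 4 to Day 17 by 0.51 (SE 0.16, adjusted p = 0.00456) and from Day 9 to Day 17 by 0.55 (SE 0.15, adjusted p = 0.00422), lower in 26 of 30 mice, and rose to Day 24 by 0.68 (SE 0.15, adjusted p = 0.000844). In responders Siglecf had levels of -0.64, 0.63 and 1.34 on Day 4, -0.06, 0.66 and 1.17 on Day 9, -1.57, 0.23 and 1.74 on Day 17 and -0.59, 1.47 and 2.22 on Day 24. Its log2 fold changes to Day 17 were -0.24 (SE 0.24, adjusted p = 0.504) from Day 4 and -0.33 (SE 0.24, adjusted p = 0.447) from Day 9, neither past the threshold. It rose from Day 17 to Day 24 by 1.03 (SE 0.23, adjusted p = 0.00101), higher in all 14 mice with both libraries. It ended above Day 4 in responders by 0.79 (SE 0.23, adjusted p = 0.012), higher in 11 of 15 mice and the 1 member of 9 tested that rose in that comparison, against 7.44% of all genes. Ccr3 in the same comparison had a log2 fold change of 0.76 (SE 0.30, adjusted p = 0.0639), higher in 11 of 15 mice, and was not called. Ccr3 and Siglecf were the 2 of 9 members tested that rose from Day 17 to Day 24 in responders, against 9.59% of all genes, and the 2 of 7 that rose in non-responders, against 9.86%. Over the same days 5 of 7 neutrophil markers fell and 1 rose and 3 of 5 monocyte markers fell in responders, where 1169 of 12561 genes fell, and 3 of 7 and 4 of 5 fell in non-responders, where 11.3% of all genes did. The summed neutrophil markers had medians of 219 CPM on Day 17 and 134 CPM on Day 24 in responders and 158 and 140 CPM in non-responders, and the monocyte markers 120 and 91.3 CPM and 116 and 85.4 CPM. Their part in the rise of Ccr3 and Siglecf was not tested. From Day 9 to Day 17 Ccr3 fell in non-responders by 1.04 (SE 0.19, adjusted p = 4.93e-06), and in responders its log2 fold change was -0.92 (SE 0.32, adjusted p = 0.0772).

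In non-responders the dip and the return were called in the 3-digit tag series and not in the 4-digit series. In the 23 mice of 3-digit tags Ccr3 changed by -1.41 (adjusted p = 4.54e-08) from Day 9 to Day 17 and by 1.88 (adjusted p = 3.62e-10) from Day 17 to Day 24, and Siglecf by -0.87 (adjusted p = 1.18e-05) and 1.08 (adjusted p = 8.97e-07). In the 7 mice of 4-digit tags the same changes were -0.07 (adjusted p = 0.964) and -0.13 (adjusted p = 0.831) for Ccr3 and 0.34 (adjusted p = 0.539) and -0.74 (adjusted p = 0.0914) for Siglecf, with the opposite sign for Siglecf in both steps and for Ccr3 in the second. Mean levels of Ccr3 on Day 24 were 1.40 ± 0.61 (SD, n = 7) in the 4-digit and 2.19 ± 0.75 (SD, n = 23) in the 3-digit non-responders. In responders Ccr3 changed from Day 17 to Day 24 by 1.65 (adjusted p = 0.000449) in the 4-digit series and by 2.36 (adjusted p = 0.283) in the 4 mice of the 3-digit series. From Day 4 to Day 17 Ccr3 changed by -0.81 (adjusted p = 0.0531) in the 4-digit and -1.77 (adjusted p = 2.89e-11) in the 3-digit non-responders, and by -0.79 (adjusted p = 0.102) and -1.97 (adjusted p = 0.0804) in the responders of the same series. The difference between the series was not tested.

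**Figure D3:**
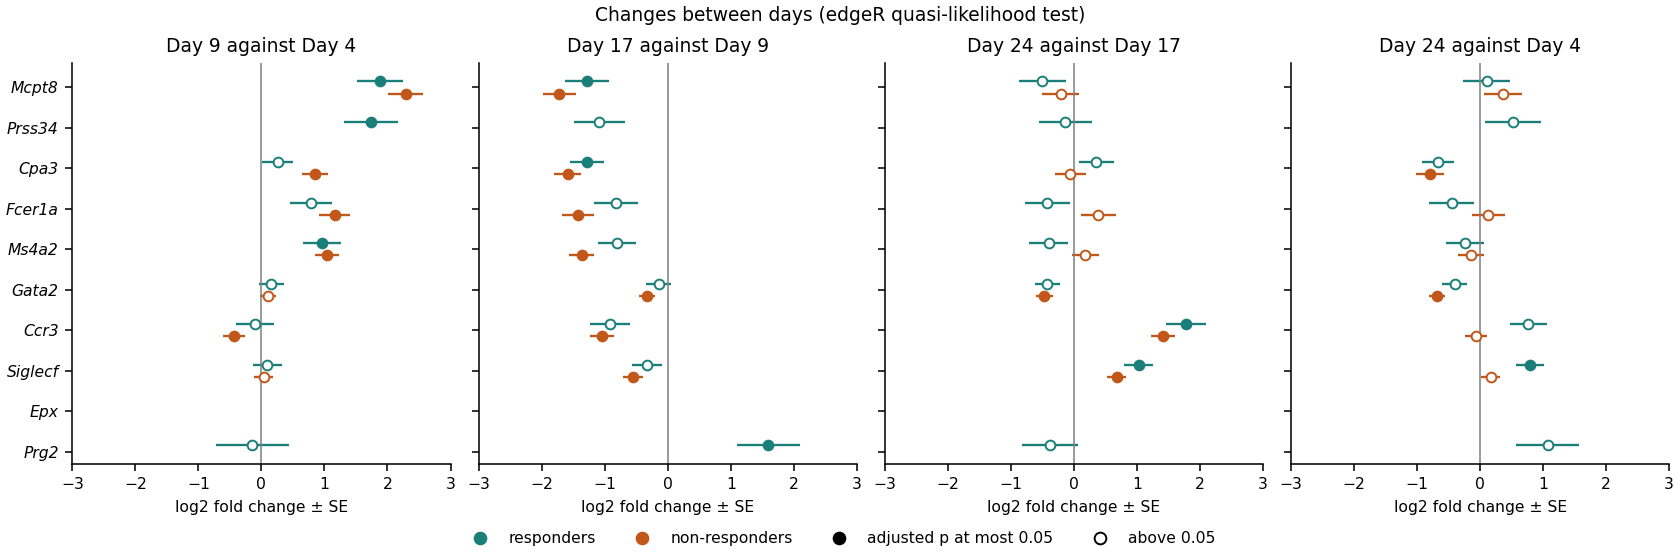
Log2 fold change (x, with bars of 1 SE) of each gene between days, responders in green and non-responders in orange, filled where the adjusted p was at most 0.05. Mcpt8, Ms4a2 and the other basophil genes lie to the right on Day 9 against Day 4 and to the left on Day 17 against Day 9, and Ccr3 and Siglecf lie to the right on Day 24 against Day 17. A gene without a point was not tested.

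**Figure D4:**
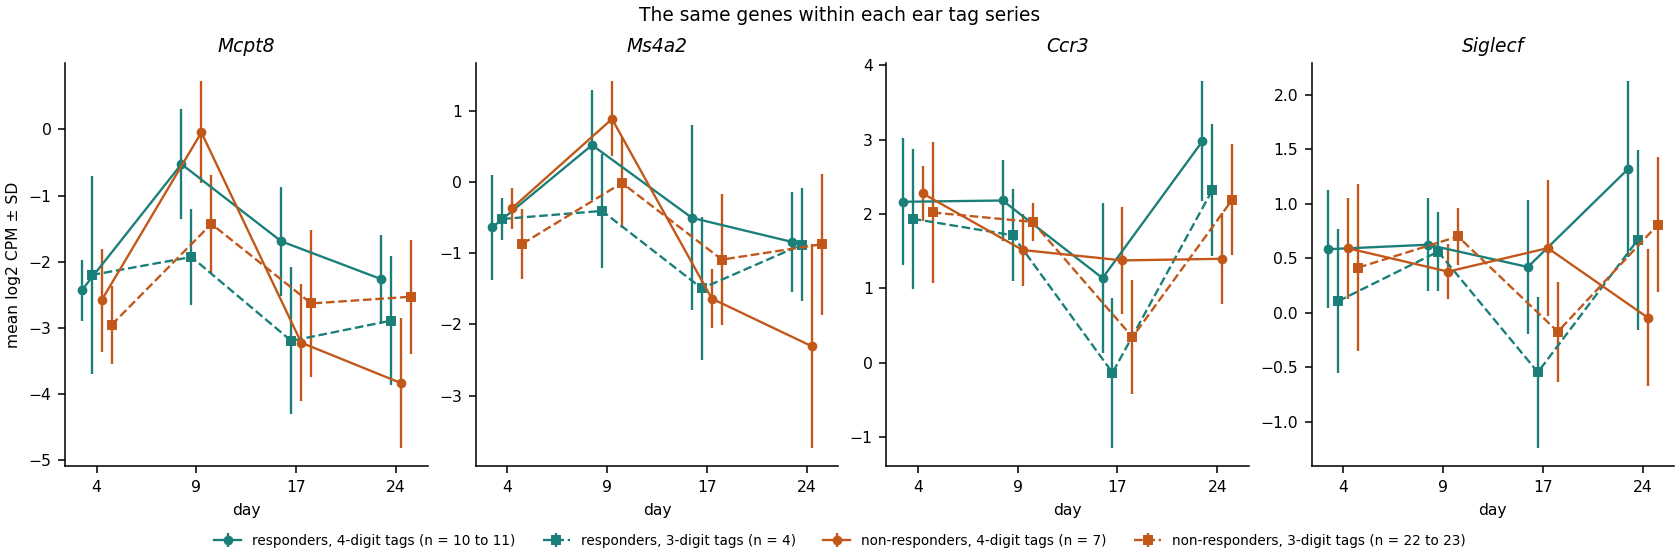
Mean log2 CPM (y, with bars of 1 SD) by day (x) of 2 basophil and 2 eosinophil genes in each ear tag series, responders in green and non-responders in orange, 4-digit tags as solid and 3-digit tags as dashed lines. The mean of Mcpt8 is highest on Day 9 in all 4 groups, with the smallest step from Day 4 in the responders of 3-digit tags (-2.20 to -1.93). In the 7 non-responders with 4-digit tags the means on Days 17 and 24 are 1.37 and 1.40 for Ccr3 and 0.59 and -0.05 for Siglecf.

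Further genes of eosinophils fell to Day 17 and rose to Day 24 in part. Of 9 such genes, listed with earlier results of these data known, 6 were tested within each response group. From Day 4 to Day 17 3 of 6 fell in non-responders, namely Il5ra, Alox15 and Cebpe, against 24.2% of all genes, and 2 of 6 in responders, namely Il5ra and Alox15, against 13.4%. Ear1, a gene of the eosinophil-associated ribonucleases, rose over the same days in responders by 1.39 (SE 0.52, adjusted p = 0.0408), as 1 of the 6, against 12.2% of all genes. From Day 17 to Day 24 the same count of 3 of 6 rose in each group, Il5ra, Alox15 and Cebpe both times, against 9.86% of all genes in non-responders and 9.59% in responders. Alox15, which encodes a lipoxygenase of eosinophils, fell by 1.30 (SE 0.18, adjusted p = 7.41e-10) to Day 17 and rose by 1.08 (SE 0.18, adjusted p = 3.58e-06) to Day 24 in non-responders, and in responders it fell by 0.91 (SE 0.29, adjusted p = 0.0137) and rose by 1.26 (SE 0.28, adjusted p = 0.000874). Il5ra, the interleukin-5 receptor alpha chain gene, fell by 0.61 (SE 0.07, adjusted p = 2.55e-13) and rose by 0.41 (SE 0.07, adjusted p = 3.59e-06) in non-responders and rose by 0.79 (SE 0.11, adjusted p = 6.87e-07) in responders. Cebpe, a transcription factor gene of granulocyte maturation, rose to Day 24 by 0.65 (SE 0.19, adjusted p = 0.00805) in non-responders and 1.06 (SE 0.28, adjusted p = 0.00476) in responders. Ptgdr2, a prostaglandin D2 receptor gene of both cell types, was listed with the basophil genes and moved the same way. In non-responders it fell by 1.14 (SE 0.27, adjusted p = 0.000199) to Day 17 and rose by 1.07 (SE 0.27, adjusted p = 0.00228) to Day 24, at a median of 6 counts. Prg3 and Ltc4s had a median count of 1.

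The granule protein genes were too low to measure by the median count, and their values are given with that limit. Epx was tested in no comparison of the deposited groups, since the filter on low counts kept it in none. Between days Prg2 was tested in responders alone, with medians of 3 counts on Day 9, 4 on Day 4, 6 on Day 17 and 8 on Day 24. Its lowest, median and highest levels were -4.39, -3.04 and -0.66 on Day 4, -4.81, -2.91 and -2.15 on Day 9 and -4.81, -2.46 and 0.61 on Day 17. The Day 17 libraries spanned the whole range of Days 4 and 9 and reached above it. Prg2 rose from Day 4 to Day 17 by 1.45 (SE 0.50, adjusted p = 0.0256) and from Day 9 to Day 17 by 1.60 (SE 0.51, adjusted p = 0.0468), with a higher level in 8 of 14 and 10 of 14 mice. It was the 1 member that rose in each of these comparisons, against 12.2% and 1.85% of all genes. The first rise was not called with DESeq2, at 1.24 (adjusted p = 0.051), with genes of at least 1 count, at 1.40 (adjusted p = 0.0549), or with the mouse as a block, at 1.12 (adjusted p = 0.0634). The second rise was not called with genes of at least 1 count, at 1.60 (adjusted p = 0.0751), and DESeq2 gave it no adjusted p, at 1.63. In the 4-digit series both were called, at 2.13 (adjusted p = 0.00307) and 1.90 (adjusted p = 0.0264), with a higher level than on Day 4 in 7 of 10 mice. In the 4 mice of the 3-digit series, where the filter left Prg2 untested, the mean went the other way from Day 4, from -2.27 ± 1.55 (SD, n = 4) to -3.20 ± 1.08 (SD, n = 4) on Day 17, with a higher level in 1 of 4. The difference of mean log2 CPM between Day 4 and Day 17 was 0.59 over all responders and 0.39 without responder 11. To Day 24 the log2 fold change of Prg2 in responders was 1.07 (SE 0.50, adjusted p = 0.123) from Day 4 and -0.38 (SE 0.44, adjusted p = 0.593) from Day 17, neither called.

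Gata2 declined late, by call in non-responders over all mice. Its lowest, median and highest levels in non-responders were 0.33, 1.38 and 2.65 on Day 4, 0.83, 1.49 and 2.74 on Day 9, 0.30, 1.25 and 2.66 on Day 17 and -0.10, 0.75 and 1.67 on Day 24. In responders they were 0.69, 1.53 and 3.03, 1.04, 1.82 and 2.59, 0.38, 1.79 and 2.70 and 0.70, 1.32 and 1.89 on the same days. In non-responders Gata2 fell from Day 4 to Day 24 by 0.68 (SE 0.13, adjusted p = 1.05e-05), lower in 24 of 29 mice, and from Day 17 to Day 24 fell by 0.47 (SE 0.13, adjusted p = 0.00666). Between Day 9 and Day 17 it fell by 0.33 (SE 0.13, adjusted p = 0.0453), a call that was lost with every gene of at least 1 count kept, at -0.32 (adjusted p = 0.0706), and with haemoglobin genes removed, at -0.32 (adjusted p = 0.0537). With Cpa3 it made 2 of 7 genes tested that fell from Day 4 to Day 24, against 24.8% of all genes, and it was the 1 member that fell from Day 17 to Day 24, against 11.3%. In responders its log2 fold change was -0.41 (SE 0.20, adjusted p = 0.151) from Day 4 to Day 24 and -0.42 (SE 0.20, adjusted p = 0.142) from Day 17 to Day 24, lower in 10 of 14 mice. In the 4-digit responders the second was -0.71 (adjusted p = 0.00582), a fall in all 10 mice, and in the 4 mice of 3-digit tags 0.70 (adjusted p = 0.586), higher in all 4. Between Day 4 and Day 9 Gata2 had log2 fold changes of 0.11 (SE 0.13, adjusted p = 0.494) and 0.16 (SE 0.20, adjusted p = 0.601) in non-responders and responders. The 7 non-responders with 4-digit tags gave 0.68 (adjusted p = 0.0207) against -0.09 (adjusted p = 0.6) in the 3-digit series, and from Day 4 to Day 24 the values were -0.52 (adjusted p = 0.173) and -0.74 (adjusted p = 1.24e-05). Genes of megakaryocytes and their progenitors, which also express Gata2, had median levels of 0.65 (Tal1) to 87.7 TPM (Pf4), against 0.47 TPM for Gata2. Of 6 such markers 4 (Pf4, Tal1, Gp9 and Itga2b) fell from Day 4 to Day 24 in non-responders and 4 from Day 17 to Day 24, while Gata1 was called in neither. In responders 1 of 6 and 0 of 6 fell in these comparisons, where 1248 of 12561 and 1169 of 12561 genes fell. Pf4, a platelet chemokine gene, fell by 0.78 (SE 0.15, adjusted p = 8.16e-06) from Day 4. Their summed level ranged over 145 to 1070 (median 251) CPM on Day 4 and 106 to 1094 (median 212) CPM on Day 24. Their part in the change of Gata2 was not tested.

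The response groups were set against each other on every day, and a gene was called with a change of at least 1.5-fold and an adjusted p no higher than 0.05. Ccr3 on Day 24 was the only call. Its lowest, median and highest levels were 1.24, 2.98 and 4.34 in responders and 0.71, 2.00 and 3.93 in non-responders, and the ranges overlapped. The log2 difference was 0.81 (SE 0.24, adjusted p = 0.0311), 1.75-fold, and the call was 1 of 7 members tested, against 0.297% of all genes. Without the Day 24 library of non-responder 29 the difference was 0.81 (adjusted p = 0.0146). Within the 4-digit series it was 1.77 (adjusted p = 0.137), between means of 2.98 ± 0.80 (SD, n = 11) and 1.40 ± 0.61 (SD, n = 7), and within the 3-digit series 0.12 (adjusted p = 0.952), between 2.32 ± 0.88 (SD, n = 4) and 2.19 ± 0.75 (SD, n = 23). Neither was called within its series, and with the series as a covariate the difference was 1.06 (adjusted p = 0.0845), not called. With every gene of at least 1 count kept it was 0.81 (adjusted p = 0.0569), also not called. A Wilcoxon test on TPM gave an adjusted p of 0.781. Over all genes the fit within the 4-digit series called 0 of 12307, that within the 3-digit series 0 of 13003, that with the covariate 3 of 12867 and the Wilcoxon test 0 of 12461. Over the alternatives other than leaving out mice in turn, the adjusted p ranged from 0.0146 to 0.952. When each mouse was left out in turn, the adjusted p ranged from 0.00844 to 0.0976, and it was above 0.05 without responder 8, 9, 10, 11 or 13. Siglecf differed in the same direction by 0.57 (SE 0.22, adjusted p = 0.0939) and was called without responder 12 or without non-responder 13. Gata2 differed by 0.47 (SE 0.15, adjusted p = 0.0411), 1.39-fold and under the fold threshold.

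Of the other eosinophil genes 2 of 6 tested were called on the same day, both higher in responders, against 0.297% of all genes. Cebpe was higher by 0.93 (SE 0.24, adjusted p = 0.012) and Ear1 by 1.34 (SE 0.39, adjusted p = 0.027). With the tag series as a covariate neither was called, at 0.85 (adjusted p = 0.146) and 1.25 (adjusted p = 0.192). Ear1 was also higher on Day 17, by 1.86 (SE 0.46, adjusted p = 0.0304), and was not called there with the covariate, at 1.02 (adjusted p = 0.524), or within the 4-digit and 3-digit series, at 1.56 (adjusted p = 0.878) and 0.06 (adjusted p = 0.99). Within the 4-digit and 3-digit series on Day 24, Cebpe had 1.46 (adjusted p = 0.229) and 0.07 (adjusted p = 0.975) and Ear1 1.90 (adjusted p = 0.301) and 0.49 (adjusted p = 0.792), none called. The ribonuclease genes Ear1, Ear2 and Ear6 are close copies of each other, so that the split of their counts is uncertain. On Days 4, 9 and 17 none of the 10 genes was called by edgeR, out of 6, 8 and 5 tested, where 4.21%, 3.65% and 0.264% of all genes were called. At an unadjusted p under 0.05 the counts were 2, 1 and 2, where 2611 of 12620, 3167 of 12608 and 2580 of 12520 genes had such a p. DESeq2 called 1, 0 and 0 of the members, and on Day 4 it called 530 higher and 31 lower of 12620 genes in all. Prg2 on Day 17, which the filter left untested, was higher in responders by 1.73 (adjusted p = 0.0285) with every gene of at least 1 count kept and was not called at 1.22 (adjusted p = 0.383) with the tag series as a covariate or at 0.23 (adjusted p = 0.936) within the 3-digit series. On the same day 3 of 7 neutrophil markers (Ngp, Ltf and Camp) were called higher in responders, against 0.264% of all genes, and their summed level was 123 to 484 (median 219) CPM in responders and 88.5 to 707 (median 158) CPM in non-responders. With the tag series as a covariate none of the 3 was called, in a fit that called 0 of 12935 genes. Their part in the differences of Ear1 and Prg2 was not tested. On Day 4, before treatment, Fcer1a had levels of -3.67, -2.11 and -0.66 in responders and -4.16, -2.55 and -1.60 in non-responders, a difference of 0.73 (SE 0.24, adjusted p = 0.0544), and DESeq2 gave 0.75 (adjusted p = 0.0289). With a median count of 9 in responders and 10 in non-responders, Fcer1a was too low to measure in the responders of that day. Cpa3 on Day 4 differed by 0.54 (SE 0.18, adjusted p = 0.051). Within the 4-digit and 3-digit series the Day 4 difference of Fcer1a was 0.25 (adjusted p = 0.627) and 0.88 (adjusted p = 0.407). On Day 9, at the height of the basophil genes, Mcpt8 differed by 0.19 (SE 0.31, adjusted p = 0.766) and Ms4a2 by 0.13 (SE 0.23, adjusted p = 0.784) between the response groups, with 95% intervals of -0.42 to 0.80 and -0.31 to 0.58. Within both tag series the sign was opposite, at -0.47 and -0.61 for Mcpt8 and -0.28 and -0.36 for Ms4a2 in the 4-digit and 3-digit series, none called. On Day 17 Ms4a2 differed by 0.70 (SE 0.31, adjusted p = 0.186), with 1.68 and -0.51 within the 4-digit and 3-digit series, neither called.

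Whether the changes from Day 4 differed between the response groups was tested as an interaction of response and day. None of 9 members tested was called for Day 9, Day 17 or Day 24 by edgeR, and none by DESeq2. At an unadjusted p under 0.05 the counts were 0, 1 and 2, where 719 of 13688, 1402 of 13688 and 2512 of 13688 genes had such a p. The share of all genes called by adjusted p was 0%, 0.351% and 3.76% with edgeR. DESeq2 called 0 of 13688 genes for Day 9, 84 higher and 4 lower for Day 17 and 360 higher and 514 lower for Day 24. For Day 24 the change of Ccr3 was higher in responders by 0.81 (SE 0.33, adjusted p = 0.141) and that of Siglecf by 0.61 (SE 0.27, adjusted p = 0.184). With the tag series in the model they were 1.12 (adjusted p = 0.0503) and 0.96 (adjusted p = 0.0374), so that Siglecf was called there, 1 of 9 members in a fit that called 438 higher and 868 lower of 13688 genes. For Day 9 the change of Mcpt8 differed by -0.41 (SE 0.48, adjusted p = 1) and that of Cpa3 by -0.60 (SE 0.35, adjusted p = 0.969), neither called. For Day 17 the change of Prg2 differed by 1.53 (SE 0.58, adjusted p = 0.335). The rise of Siglecf over Day 4 was therefore called in responders and not in non-responders, and the test of the difference itself was not passed without the tag series in the model.

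Across libraries the basophil genes varied with each other, and Ccr3 varied with Siglecf. After subtraction of the 8 group means, the correlations of log2 CPM over 178 libraries among the 5 basophil genes ranged from 0.35 to 0.68, with Mcpt8 and Ms4a2 at 0.68 and Fcer1a and Ms4a2 at 0.66. Without the Day 24 library of non-responder 29 the last was 0.76. Ccr3 and Siglecf correlated at 0.84. Across these sets, each of the 5 basophil genes with Ccr3 and Siglecf, the values ranged from 0.06 to 0.25. Gata2 correlated with the 5 basophil genes at 0.20 (Prss34) to 0.49 (Fcer1a), with Ccr3 at 0.21 and with Siglecf at 0.15. Prg2 correlated with Siglecf at 0.48, with Ccr3 at 0.41 and with the 5 basophil genes at 0.14 (Cpa3) to 0.37 (Mcpt8). These values are descriptions, since libraries of 1 mouse, library depth and the scaling are shared by all genes, and counting error lowers the values of the rarer genes.

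**Figure D5:**
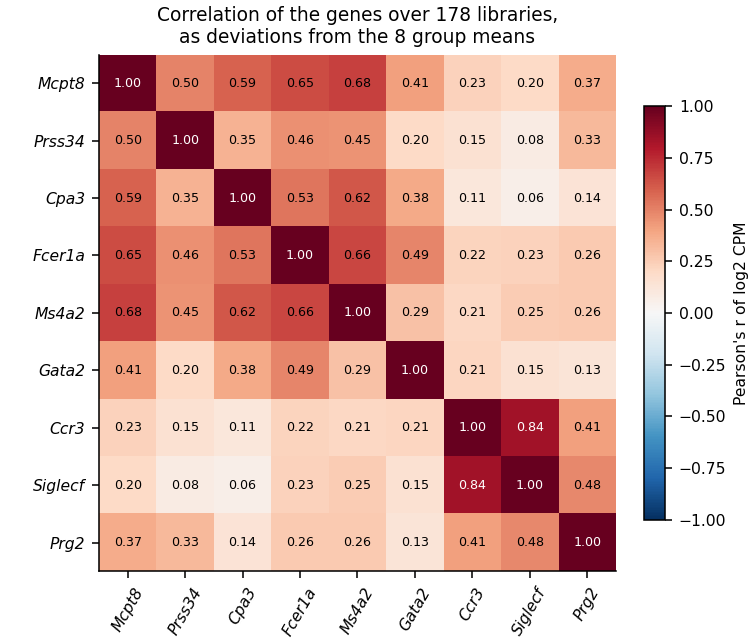
Pearson correlation of log2 CPM over 178 libraries between 9 of the genes, as deviations from the 8 group means, with red for positive values. Epx is left out because the filter did not keep it. The 5 basophil genes form a block of 0.35 to 0.68, and Ccr3 and Siglecf form a pair at 0.84.

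Of 13679 other genes kept over all libraries, those most like each member by Pearson's r of log2 CPM over 178 libraries were as follows, as a description. For Ms4a2 they were Cyp11a1 (0.88), Cd200r3 (0.85), Cdh1 (0.83), Hgf (0.66) and Lama5 (0.65), and for Mcpt8 Cyp11a1 (0.77), Cd200r3 (0.75), Cdh1 (0.71), Hgf (0.70) and Csf2rb2 (0.69). For Fcer1a they were Cd200r3 (0.79), Cyp11a1 (0.75), Cdh1 (0.67), Hgf (0.61) and Slc7a8 (0.60), for Cpa3 Cyp11a1 (0.73), Cdh1 (0.73), Cd200r3 (0.70), Slc7a8 (0.59) and Padi2 (0.56) and for Prss34 Cyp11a1 (0.58), Cd200r3 (0.56), Csf2rb2 (0.54), C1rl (0.52) and Cdh1 (0.51). Cyp11a1, Cd200r3 and Cdh1, the E-cadherin gene, were among the 5 nearest genes of all 5 basophil members, and the first 2 of these are on the list of other basophil genes. That list was chosen with earlier results of these data known, so that the overlap is no independent support. For Ccr3 the nearest were Inpp5j (0.92), Alox15 (0.91), Adora3 (0.86), Reps2 (0.86) and Gapt (0.84), and for Siglecf Alox15 (0.82), Inpp5j (0.81), Adora3 (0.78), Zfp704 (0.78) and Reps2 (0.76). Alox15, Inpp5j, Adora3 and Reps2 were near to both. For Gata2 they were P2ry1 (0.82), Vcl (0.80), Hacd4 (0.80), Ndrg1 (0.79) and A730089K16Rik (0.79), none of which was near to any other member. For Prg2 they were Ear1 (0.75), Ear6 (0.68), Gapt (0.48), Il1rl1 (0.46) and Man2b1 (0.45), with Ear1 and Ear6 close copies of each other. The group means were not subtracted here, so that these values include shifts shared between days. As deviations from the group means some were lower, such as Prss34 with Csf2rb2 (0.28) and Cpa3 with Padi2 (0.28), and those of Gata2 were 0.80 to 0.82.

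Receptor chains that basophils and eosinophils share with other leukocytes rose on Day 9, and their ligand genes had median counts of 0 to 2. All 5 listed chains rose from Day 4 to Day 9 in non-responders, against 23.3% of all genes, and 3 of 5 in responders, against 13.5%. Csf2rb, the common beta chain of the receptors for interleukin-3, interleukin-5 and GM-CSF, rose by 1.04 (SE 0.09, adjusted p = 5.22e-19) in non-responders and 0.74 (SE 0.12, adjusted p = 3.37e-06) in responders, and Il3ra, the interleukin-3 receptor alpha chain gene, by 0.55 (SE 0.09, adjusted p = 4.62e-08) in non-responders. Csf2rb and Csf2rb2 are close copies whose counts may be split between them. Fcer1g, the gamma chain gene that completes the IgE receptor and serves other receptors, rose by 0.26 (SE 0.09, adjusted p = 0.0124) in non-responders and fell from Day 4 to Day 24 by 0.42 (SE 0.09, adjusted p = 0.000111) in non-responders and 0.72 (SE 0.13, adjusted p = 0.000314) in responders. It was the 1 of 5 chains that fell over these days in each group, against 24.8% of all genes in non-responders and 1248 of 12561 in responders. Csf2ra and Csf2rb were the 2 of 5 that lay above Day 4 in non-responders, by 0.30 (SE 0.08, adjusted p = 0.000725) and 0.25 (SE 0.09, adjusted p = 0.0154), where 3100 of 13009 genes did, and 0 of 5 did in responders, where 7.44% of all genes did. Among the 7 ligand genes, Il3 had 0 counts in all 178 libraries, which allows up to 3 counts in each. Il5, Tslp, Csf2, Ccl11 and Ccl24 had medians of 0 counts, with highest counts of 3, 4, 9, 7 and 49. Il33 had a median of 2 counts, a highest count of 92 and 0 counts in 51 libraries, and was kept by the filter only over all libraries together.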

How the data were processed

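Retro-orbital whole blood was collected in TRIzol, and a SMARTer mRNA-Seq kit was used to build libraries from polyadenylated RNA. The authors aligned reads to mm10 (the submitters' processing notes name STAR without a version) and deposited estimated counts per gene, of which 3.14% are not whole, and TPM values to 2 decimals that they computed from the counts with lengths not given in the sources used here. All 55450 gene identifiers were found in GENCODE M21, no row named no gene and 0 libraries held identical values.

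Counts were rounded and tested with edgeR 4.0.16 (R 4.3.3) by the quasi-likelihood test, with TMM scaling, filterByExpr and Benjamini-Hochberg adjustment over all genes tested. Response groups were compared by day, with calls at 1.5-fold or more and an adjusted p up to 0.05. Days were compared by response group, and the interaction of response and day was fitted on all 178 libraries, with calls at an adjusted p up to 0.05. Levels are log2 CPM with a prior count of 2, over 13688 genes kept. Libraries of 1 mouse are repeated samples and mice are the replicates. Fits of the days treat libraries as independent, and the mouse as a block, from the ear tags, was an alternative. Deviations of the same mouse on 2 days correlated by -0.05 to 0.10 on average over 6 pairs of days. Other alternatives were DESeq2 1.42.0, a filter of at least 1 count, removal of 12 haemoglobin genes, the ear tag series as a covariate and each series alone, a Wilcoxon test on TPM with a pseudocount of 0.01, other treatments of the 2 libraries named in the report and leaving out each mouse. The test was tested on simulated data. The members and gene lists were chosen with earlier results of these data known. The text names all members, list genes called in a comparison described (by smallest p, values for at most 3 in each direction) or at or near 0 counts, and the 5 genes most like each member.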

Additional observations from a re-analysis of the deposited data

How the results depend on the processing

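Of 133 tests of the 10 genes 33 were called. Over all genes the number called ran from 0 of 13688 (interaction for Day 9) to 3030 higher and 3575 lower of 13009 (non-responders, Day 4 to Day 9). The pooled count therefore has no single share to be set against. Of the calls refitted, 31 of 32 remained with DESeq2, 29 of 33 with every gene of at least 1 count, 29 of 30 with haemoglobin genes removed, 6 of 6 without the Day 24 library of non-responder 29, 19 of 19 with the Day 17 library of non-responder 24 as labelled and 13 of 13 without it. In the 4-digit series alone 20 of 33 remained and in the 3-digit series alone 17 of 30, with fewer mice in each. With the mouse as a block, 30 of 32 remained, and the number called in responders from Day 9 to Day 17 was 5 in place of 3, where over all genes the block fit called 278 higher and 515 lower of 12561 and the test reported 232 higher and 462 lower of 12561. Apart from the calls of Ccr3 and Prg2 given beside their results, the block ended none of the calls refitted.

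For responders against non-responders, the number of the 10 genes called on Day 4 was 1 with DESeq2 and 2 with a Wilcoxon test on TPM, in place of 0, and on Day 17 it was 1 (Prg2) with every gene of at least 1 count, a fit that called 71 higher and 11 lower of 25827 genes. DESeq2 called 530 higher and 31 lower of 12620 genes on Day 4. On TPM, which include haemoglobin, the median log2 difference over all genes tested on Day 4 was -0.68 and 8789 of 12611 genes were called lower in responders and 3 higher. The 2 members called there, Ccr3 and Siglecf, were lower in responders, at -0.74 and -0.66, near that median. The median on TPM was -0.68 on Day 9 and -0.15 on Day 24. The number of the 10 genes called on Day 24 was 0 with every gene of at least 1 count, 0 with the tag series as a covariate, 0 and 0 within the 4-digit and 3-digit series, 0 with the Wilcoxon test and 2 by adjusted p alone, in place of 1. Over all genes the first of these fits called 36 higher and 10 lower of 25275, the covariate fit 3 of 12867, those within the series 0 of 12307 and 0 of 13003, the Wilcoxon test 0 of 12461 and adjusted p alone 425 higher and 641 lower of 12469. The number of the 10 genes ranged from 0 to 2 when each mouse was left out in turn, an alternative chosen after seeing the data. From Day 4 to Day 24 in responders DESeq2 called 2 in place of 1, and 1061 higher and 1363 lower of 12561 genes in all. The interaction for Day 24 gave 1 with the tag series as a covariate, in place of 0, where that fit called 438 higher and 868 lower of 13688 genes in all. Fits within each tag series were added after seeing the data for the changes between days. In the 4 responders of 3-digit tags they called 0 from Day 4 to Day 9, 0 from Day 4 to Day 17, 0 from Day 4 to Day 24, 1 from Day 9 to Day 17 and 0 from Day 17 to Day 24, where over all genes they called 459 higher and 421 lower, 0 of 12675, 0 of 12675, 17 higher and 182 lower, and 5 of 12675 in the same order. In the 7 non-responders of 4-digit tags they called 1 from Day 4 to Day 24 and 1 from Day 17 to Day 24, where over all genes they called 384 higher and 118 lower of 12678 and 531 higher and 546 lower of 12678. The causes were not tested.

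Of the log2 fold changes printed or called, these changed sign. In the 7 non-responders of 4-digit tags Ccr3 had -0.13 from Day 17 to Day 24, Siglecf had 0.057 from Day 4 to Day 17, 0.34 from Day 9 to Day 17 and -0.74 from Day 17 to Day 24, Mcpt8 had -0.70 from Day 4 to Day 17 and -1.37 from Day 4 to Day 24, and Gata2 had 0.29 from Day 4 to Day 17. In the 3-digit series Gata2 had -0.092 from Day 4 to Day 9 in non-responders and -0.57 in responders, and 0.70 from Day 17 to Day 24 in responders, Mcpt8 had -1.32 from Day 4 to Day 17, -0.86 from Day 4 to Day 24 and 0.46 from Day 17 to Day 24 in responders and Ms4a2 had 0.14 from Day 4 to Day 24 in non-responders. With the mouse as a block Mcpt8 had -0.0046 from Day 4 to Day 24 in responders. Between responders and non-responders on Day 4, Ccr3 had 0.01 in the test reported and -0.015 with every gene of at least 1 count, -0.00028 with haemoglobin genes removed, -0.056 with the tag series as a covariate, -0.14 in the 3-digit series and -0.74 on TPM, Fcer1a had -0.041 and Cpa3 -0.26 on TPM, both above the median of all genes on that scale, and Siglecf had 0.019 in the 4-digit series. On Day 9 Mcpt8 had -0.54 with the tag series as a covariate, -0.47 and -0.61 in the 4-digit and 3-digit series and -0.44 on TPM, and Ms4a2 had -0.31, -0.28, -0.36 and -0.47 in the same order. In the 3-digit series Ms4a2 had -0.51 on Day 17 and Siglecf -0.068 on Day 24. The cause was not tested.

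In simulated data for the Day 24 comparison of the response groups, run on 12469 genes, 48% of genes changed by 1.5-fold, 98% by 2-fold, 92% by 3-fold and 100% by 4-fold were recovered. Calls there required at least 1.5-fold, so that genes simulated at 1.5-fold could fail by that threshold alone. For non-responders from Day 4 to Day 9, run on 12556 genes, 86%, 96%, 98% and 100% were recovered in the same order. This simulation fitted the libraries of Days 4 and 9 alone, while the test reported fitted all days together. The changed genes of both simulations were drawn from all levels, so that recovery of the rarer members was not measured. The simulations called 2 and 15 unchanged genes in these comparisons. Counting error is larger for the basophil genes, Prg2 and Epx than for Ccr3 and Gata2.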
